A study of Mus musculus with 4 samples.

Results

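The 10 genes described here encode the MHC class II molecules of the mouse, the proteins that load them with peptide, and the factor that switches them on: Cd74, H2-Aa, H2-Ab1, H2-Eb1, H2-DMa, H2-DMb1, H2-DMb2, H2-Oa, H2-Ob and Ciita. They were taken by gene symbol from 25806 listed genes, and each symbol had 1 row. The family was chosen by the difference its members showed between these same libraries, so that difference is given below as a description, with no test of its own. The knockout group held 2 mammary gland libraries of female MMTV-PyMT mice labelled as miR-9 knockout, from a line bred as an exon 1 knockout of this microRNA gene. The control group held 2 libraries from female littermates without this knockout. Both groups carried the MMTV-PyMT transgene, in which the promoter of mouse mammary tumour virus drives polyomavirus middle T antigen, mainly in mammary epithelium. All mice were of a mixed C57BL/6 background, and all glands were taken at a hyperplastic stage. The labels give neither ages, nor which miR-9 gene was targeted, nor whether the animals sequenced were homozygous. The comparison asks how gene expression differs between hyperplastic glands labelled as miR-9 knockout and those without this knockout.

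MHC class II molecules are pairs of an alpha and a beta chain that carry peptides from the endosome to the cell surface, where CD4 T cells read them. The invariant chain Cd74 holds new pairs together and leads them to the endosome, proteases trim it to a short peptide, and the H2-DM pair exchanges that peptide for an antigen. The H2-O pair restrains H2-DM, chiefly in B cells. Dendritic cells, B cells and macrophages express these genes through the transactivator Ciita, and many other cells, mammary epithelium among them, can do so after interferon gamma.

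The values are normalised read counts: reads per gene divided by 1 size factor per library. They summed to 15904798 and 16073229 in the knockout libraries and to 16378833 and 16418668 in the controls. Epithelial markers were abundant in every library. The 10 epithelial genes, keratins and Epcam among them, summed to 79389 and 72389 in the knockouts and to 84304 and 87288 in the controls. Knockout library 1 stood apart in B cell genes. The 12 genes of a B cell list summed to 1124 and 469 in knockout libraries 1 and 2, against 275 and 244 in control libraries 1 and 2. Of these reads, 366 and 331 in the knockouts and 198 and 181 in the controls were of Cd72, also found on other leukocytes. Values without a library are given where leaving it out changes a call or clearly moves a value. Nothing in the labels says that each library came from a separate mouse, so errors and p-values here measure the spread between these libraries, which may be technical.

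Messages of all 4 of the chain genes with high counts were higher in the knockout glands, at between 2.19 and 2.57 times the control mean. Cd74 (ENSMUSG00000024610, GRCm38 chromosome 18, 60803848 to 60812646), the invariant chain, was at 17886 and 17674 normalised reads in the knockouts, against 7326 and 6533 in the controls. The means were 17780 ± 149 and 6930 ± 561 (SD, n = 2 each), a log2 fold change of 1.36 (SE 0.10). The 2 knockout libraries differed by far less than the distance to the nearer control, and no library of one group reached the other.

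The genes of the class II pair A followed closely. H2-Aa, the A alpha chain, had 9622 and 10193 in the knockouts and 5075 and 3896 in the controls, a log2 fold change of 1.16 (SE 0.14). H2-Ab1, the A beta chain that pairs with it, had 8526 and 7261 in the knockouts and 4032 and 3169 in the controls, a log2 fold change of 1.14 (SE 0.14). For both genes the lower knockout library lay well above the higher control, and control 2 was the lowest library. H2-Eb1, the E beta chain, had 8518 and 8111 in the knockouts and 3974 and 2851 in the controls, a log2 fold change of 1.30 (SE 0.16). In C57BL/6 mice the partner E alpha gene carries a promoter deletion, so that in this strain an E pair is not displayed although H2-Eb1 is transcribed. Together Cd74, H2-Aa, H2-Ab1 and H2-Eb1 took 0.28% and 0.269% of all normalised reads in the knockouts, and 0.125% and 0.1% in the controls.

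Ciita (ENSMUSG00000022504, chromosome 16, 10480059 to 10528418), the transactivator that class II promoters depend on, had 378 and 386 in the knockouts and 178 and 172 in the controls. This gave means of 382 ± 5.33 and 175 ± 3.8 (SD, n = 2 each) and a log2 fold change of 1.12 (SE 0.18). The libraries lay close together in both groups, at a log2 difference of -0.03 between the knockouts and 0.04 between the controls. Its 3' neighbour Dexi overlaps it on the opposite strand, and the strand setting of the counting was not given in the sources used here, but Dexi itself was at 676 and 632 in the knockouts and 673 and 786 in the controls. The summed reads of Cd74, H2-Aa, H2-Ab1 and H2-Eb1 per read of Ciita were 118 and 112 in the knockouts and 115 and 95.4 in the controls. These ratios overlapped between the groups.

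**Figure D1:**
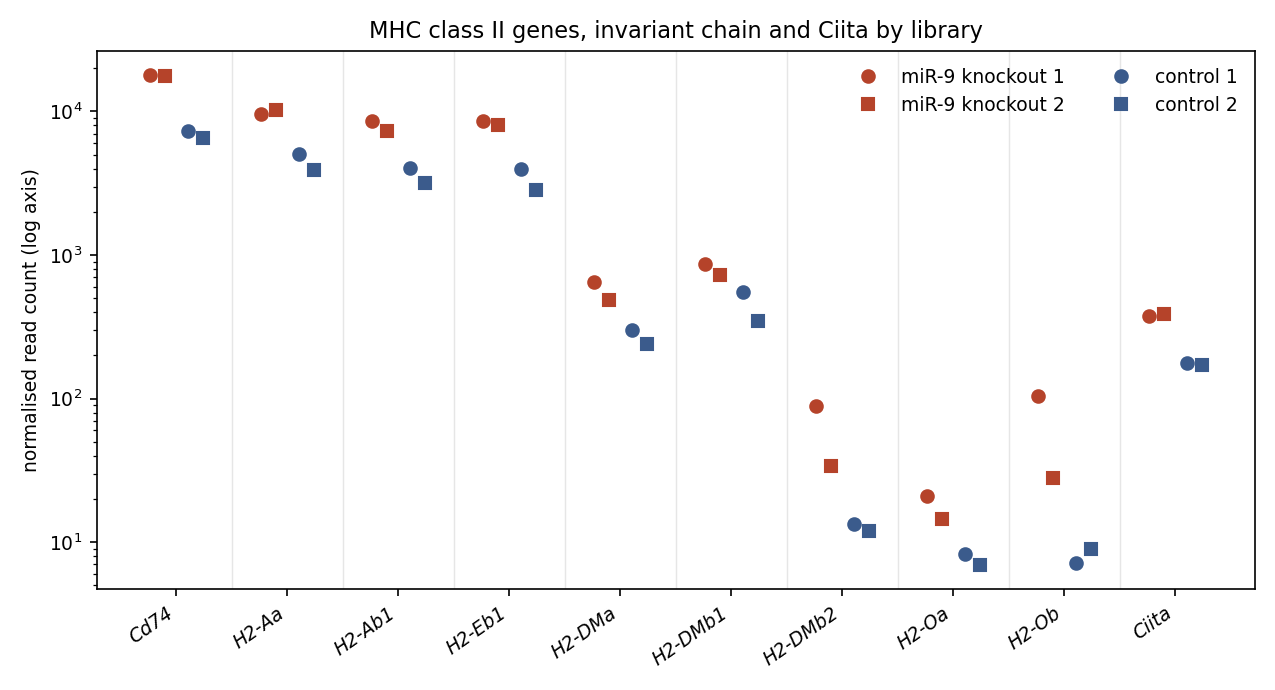
Normalised read count (log axis) of each of the 10 genes in the 2 knockout libraries (red) and the 2 control libraries (blue), with circles for library 1 and squares for library 2. Every red point lies above both blue points of its gene, and the red points are farthest apart for H2-Ob, at 105 and 28.2, and H2-DMb2, at 89.5 and 34.

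The genes of the peptide exchange pair had lower counts and smaller or less even differences. H2-DMa, the alpha chain of H2-DM, had 644 and 486 in the knockouts and 301 and 242 in the controls, a log2 fold change of 1.05 (SE 0.20). H2-DMb1, the main beta chain, had 866 and 723 in the knockouts and 551 and 345 in the controls, a log2 fold change of 0.86 (SE 0.23). The controls lay far apart for H2-DMb1, and its log2 fold change was 0.52 without control 2 and 1.20 without control 1. H2-DMb2, a second beta chain gene, was at 89.5 and 34 in the knockouts and at 13.4 and 12 in the controls, a log2 fold change of 2.05 (SE 0.53). Knockout 1 carried this value, which was 1.36 without it and 2.73 without knockout 2.

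H2-DMb1 and H2-DMb2 are near copies, which bears on how their reads were divided. Their longest annotated coding transcripts were 94.1% identical over 1219 aligned bases, and 361 stretches of 50 bases, 26.6% of those of H2-DMb1 and 25.2% of those of H2-DMb2, occurred in both. No other pair among the 10 genes shared such a stretch. The split between the copies is thus uncertain, while their sum is less so: it was 955 and 757 in the knockouts and 564 and 357 in the controls. Per kilobase, H2-DMb2 made up 8.24% and 3.92% of the 2 beta chain messages in the knockouts and 2.06% and 2.92% in the controls.

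The H2-O genes, whose products form the inhibitor of H2-DM, were the lowest of the family per kilobase in every library. H2-Oa, the alpha chain, had 20.9 and 14.6 in the knockouts and 8.22 and 6.97 in the controls, a log2 fold change of 1.11 (SE 0.53). H2-Ob, the beta chain, had 105 and 28.2 in the knockouts and 7.19 and 8.97 in the controls, a log2 fold change of 2.62 (SE 0.64). Knockout 1 lay far above knockout 2 for H2-Ob, and its log2 fold change was 1.69 without knockout 1 and 3.56 without knockout 2. Even so, knockout 2 lay above both controls for both genes. Per kilobase, H2-Oa and H2-Ob together amounted to 5.06% and 2.56% of H2-DMa and H2-DMb1 together in the knockouts, against 1.54% and 2.15% in the controls.

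Of the 10 genes, 5 passed the threshold of limma's test across all genes, all in the direction of higher in the knockouts: Cd74, H2-Aa, H2-Ab1, H2-Eb1 and Ciita. Among the 22455 genes tested, 0.414% passed in that direction. Both knockout libraries lay above both controls for all 10, as they did for 25.5% of the genes tested. Since the family was chosen from this contrast, nothing is read from either count. The median log2 fold change was 1.15 over the 10 genes, all of which passed the filter on low values, and 0.00 over all tested genes, whose quartiles were -0.25 and 0.45. The number past the threshold depended on single libraries. It fell without either knockout library and rose without control 1, for these genes and over all genes alike. Passing without control 1, as given below for single genes, is thus not particular to a gene or family. The median log2 fold change of the 10 genes was 1.17 without knockout 1 and 1.30 without knockout 2. It was 1.33 without control 1, where H2-DMa was at 1.20, and 1.03 without control 2, where Ciita was at 1.10. With a pseudocount of 0.1 in place of 1, Cd74 alone passed.

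**Figure D2:**
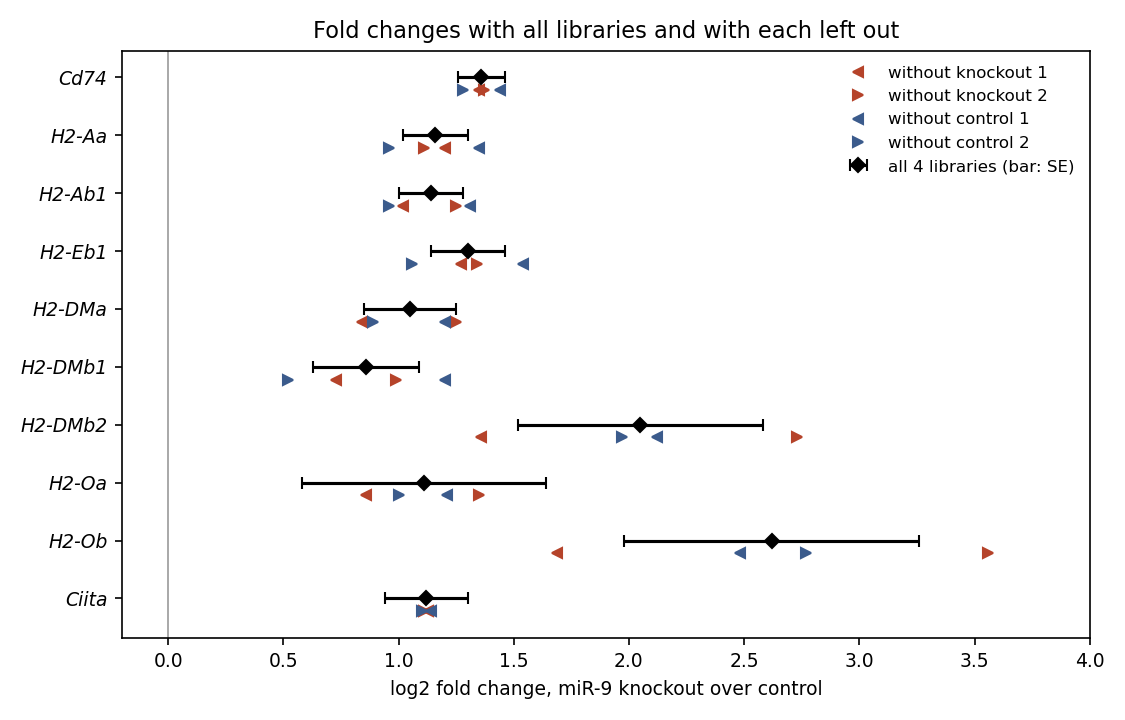
Log2 fold change, knockout over control, of the 10 genes with all 4 libraries (black, bar of 1 SE) and with each library left out (red arrows without a knockout library, blue arrows without a control library). Ciita and Cd74 hold to between 1.10 and 1.14 and between 1.28 and 1.44, whereas H2-Ob runs from 1.69 to 3.56 and H2-DMb2 from 1.36 to 2.73 according to which knockout library is left out.

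The family showed 2 patterns across the libraries. For Cd74, H2-Aa, H2-Ab1, H2-Eb1 and Ciita, knockout 1 minus knockout 2 on the log2 scale lay between -0.08 and 0.23, where the median size of this difference was 0.22 over all tested genes. For H2-DMb2 and H2-Ob it was 1.37 and 1.87. Among the 2117 genes with a mean between 20 and 60 normalised reads, which is where these genes lie, its median size was 0.39 and its 90th percentile 1.07. H2-DMa, H2-DMb1 and H2-Oa lay between, at 0.41, 0.26 and 0.49. These spreads are described with no test, as each group has 2 libraries.

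Levels can be set against each other only per length, here as normalised reads per kilobase of the gene length given in the files. The order depends on that length, which was 1184 bases for H2-Eb1, 1874 for H2-Aa and 1637 for H2-Ab1. Their longest annotated coding transcripts had 1669, 1128 and 1212 bases. By these, H2-Eb1, longer and with fewer reads than H2-Aa, would lie below it in every library. Cd74 was the highest in every library, at 12685 and 12535 in the knockouts and 5196 and 4633 in the controls. H2-Eb1 was second in every library, at 7194 and 6850 in the knockouts and 3356 and 2408 in the controls. H2-Aa and H2-Ab1 did not keep an order. H2-Aa was at 5135 and 5439 in the knockouts and 2708 and 2079 in the controls, and H2-Ab1 at 5208 and 4436 in the knockouts and 2463 and 1936 in the controls, so that H2-Ab1 led in knockout 1 alone. H2-DMb1 and H2-DMa followed in that order in all 4 libraries, H2-DMb1 at 583 and 487 in the knockouts and 371 and 232 in the controls. Ciita was at 39.6 and 40.4 in the knockouts and 18.6 and 18.1 in the controls, and was overtaken by H2-DMb2 in knockout 1, where H2-DMb2 reached 52.4. At the foot of the order H2-Oa lay above H2-Ob in knockout 2 and both controls, and below it in knockout 1, where H2-Ob reached 33.4 against 15.9 for H2-Oa.

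The proportions between chains can be read from the same scale. The size of each ratio depends on the lengths used, while its comparison between libraries does not. Cd74 per unit of H2-Aa was 2.47 and 2.3 in the knockouts and 1.92 and 2.23 in the controls, and H2-Ab1 per unit of H2-Aa was 1.01 and 0.815 in the knockouts and 0.909 and 0.931 in the controls. H2-DMa per unit of H2-DMb1 was 0.673 and 0.608 in the knockouts and 0.495 and 0.636 in the controls. Of these 3 ratios the first did not overlap between the groups, though its nearest values, 2.3 in knockout 2 and 2.23 in control 2, were closer than the 2 controls were to each other. H2-Ob per unit of H2-Oa was 2.1 and 0.806 in the knockouts and 0.365 and 0.536 in the controls.

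Class II promoters share a module in which an X box, bound by the RFX complex, stands upstream of a Y box, an inverted CCAAT element bound by NF-Y, and Ciita acts through the proteins assembled there. The stretches printed here show this module in H2-Aa and H2-Eb1, whose knockout libraries lay close together. They also show it in H2-DMb1 and H2-Oa, which lay between the 2 patterns, and in H2-DMb2 and H2-Ob, which split the knockout libraries. They run 5' to 3' on the gene's strand, from RefSeq on GRCm38.p6, and each lies upstream of the RefSeq start. The capitals mark GNAAC, a part of the X box in several class II genes, and ATTGG, the core of the Y box.
H2-Aa: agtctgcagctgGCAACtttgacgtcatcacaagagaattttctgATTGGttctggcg
H2-Eb1: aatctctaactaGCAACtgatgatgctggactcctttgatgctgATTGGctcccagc
H2-DMb1: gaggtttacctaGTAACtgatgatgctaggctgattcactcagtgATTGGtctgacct
H2-DMb2: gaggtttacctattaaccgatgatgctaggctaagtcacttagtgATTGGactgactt
H2-Oa: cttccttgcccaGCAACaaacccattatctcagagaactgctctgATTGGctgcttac
H2-Ob: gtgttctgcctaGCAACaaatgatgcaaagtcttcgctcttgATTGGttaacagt

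These stretches are chr17:34287859-34287916 on the minus strand for H2-Aa and, on the plus strand, chr17:34305764-34305820 for H2-Eb1, chr17:34153085-34153142 for H2-DMb1, chr17:34145114-34145171 for H2-DMb2, chr17:34092291-34092348 for H2-Oa and chr17:34238806-34238860 for H2-Ob. All 6 hold ATTGG on the gene's strand, ending between 38 and 85 bases before the start. In 5 of them GNAAC precedes it with a gap of 25 to 28 bases, and H2-DMb2 has TTAAC at the same place, 28 bases before ATTGG. Over the 250 bases before the start, ATTGG on either strand was found in 33.8% of 32851 promoters, and GNAAC followed by ATTGG after 15 to 35 bases, on either strand, in 3.0%. The letters and the gap were chosen after these sequences were seen, the 2 motifs cannot overlap, and a match is a description of the sequence. H2-DMb1 and H2-DMb2, at 0.26 and 1.37 for knockout 1 minus knockout 2 on the log2 scale, differ little over this stretch. The RefSeq start of H2-DMb2 was 1942 bases from its start in the files, against at most 119 for the others printed. Its stretch thus lies well inside the gene as the files give it. Of the other members, H2-DMa had RefSeq starts 9664 and 12350 bases from the start in the files and was not read, while H2-Ab1, Cd74 and Ciita are named only.

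Messages that miR-9-5p can bind directly carry a match to its seed, bases 2 to 8, in the 3' UTR. The same mature sequence is listed in RefSeq for Mir9-1, Mir9-2 and Mir9-3. Which of these was targeted is not in the labels, so miR-9-5p cannot be taken as absent from the knockouts. The sequence is shown because the knockout is labelled as one of this microRNA, and the capitals mark the seed.
miR-9-5p: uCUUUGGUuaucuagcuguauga
Ciita site: ctttgtagcttCCAAAGAtgcagtgaaaa

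The Ciita site, in capitals and beginning 1202 bases after the stop codon, is a match to bases 2 to 7 of the microRNA followed by A. Searched on the message strand were ACCAAAGA and the 7 bases at either end of it. This was the only match in the longest annotated 3' UTRs of the 10 genes. Thus 1 of 10 members had a match, against 21.9% of the 15868 tested genes with a 3' UTR, and none had the 8-base match, found in 4.5% of those genes. The class II 3' UTRs are short, with a median of 475 bases against 1095, and the Ciita one was the longest, at 2676 bases. The files measure messages only, so binding at this site was not tested.

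Among the DNA-binding partners and regulators of class II transcription, 0 of 15 tested genes passed limma's threshold in either direction, where 0.583% of all genes did and 5 of the 15 had an unadjusted p under 0.05. The median log2 fold change was 0.03. Rfx5, the RFX subunit that binds the X box, had 521 and 546 in the knockouts and 438 and 574 in the controls, so its groups overlapped. The 3 with the smallest p were factors of the immune lineages. Irf8, which directs dendritic cell and macrophage development, had 508 and 463 in the knockouts and 277 and 226 in the controls (log2 fold change 0.95, SE 0.18, limma adjusted p = 0.0616). Spi1, the myeloid and B cell factor PU.1, had a log2 fold change of 0.63 (limma adjusted p = 0.131), and Irf4, of B cells and a subset of dendritic cells, had 65.7 and 47.6 in the knockouts and 25.7 and 8.97 in the controls (log2 fold change 1.80, limma adjusted p = 0.148). Without control 1 these 3 genes passed, at limma adjusted p = 0.0136 for Irf8, 0.0332 for Spi1 and 0.0232 for Irf4, whose log2 fold change was then 2.51 and was 1.09 without control 2. Irf8 also passed with no filter (0.0413) and with quantile normalisation (0.0475).

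Genes of the endosomal machinery that trims the invariant chain, prepares peptides or accompanies class II went both ways. Of 14 tested, 0 passed limma's threshold (5 at an unadjusted p under 0.05), and the median log2 fold change was 0.03. Both knockouts lay above both controls for 3 genes and below them for 6. Over all tested genes they lay above for 25.5%, and 51.2% had no overlap in either direction. The 3 above were Ctss, Cd37 and Ctse. Ctss, the cathepsin that cleaves the invariant chain in dendritic cells and B cells, had 5450 and 5643 in the knockouts and 4608 and 4033 in the controls (log2 fold change 0.36, SE 0.11, limma adjusted p = 0.142), and passed without control 1 (limma adjusted p = 0.0457). Cd37, a leukocyte tetraspanin abundant in B cells, had 258 and 102 in the knockouts and 67.8 and 48.8 in the controls (log2 fold change 1.48, SE 0.45, limma adjusted p = 0.156), so that its knockouts also lay far apart. Ctse, an aspartic protease, had 109 and 139 in the knockouts and 74 and 63.8 in the controls (log2 fold change 0.83, SE 0.29, limma adjusted p = 0.198). Ctsl, a cathepsin of thymic epithelium and many other tissues, had 4265 and 3267 in the knockouts and 5293 and 5374 in the controls (log2 fold change -0.51, SE 0.13, limma adjusted p = 0.115), and its log2 fold change was -0.32 without knockout 2. Cd9, a tetraspanin found with class II at the surface and abundant in epithelium, had a log2 fold change of -0.33 (limma adjusted p = 0.145).

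Interferon gamma is the main inducer of Ciita outside professional antigen-presenting cells. Its own message was at 2.98 and 1.94 in the knockouts and 3.08 and 0.996 in the controls, too few reads to compare. Of 22 tested genes of the pathway and its targets, Cxcl9, a chemokine for activated T cells, rose past limma's threshold, with 219 and 229 in the knockouts and 77.1 and 69.7 in the controls (log2 fold change 1.60, SE 0.24, limma adjusted p = 0.0404). It did not pass with a pseudocount of 0.1 (limma adjusted p = 0.0683) or without either knockout library (limma adjusted p = 0.732 and 0.587). Ido1, a tryptophan-degrading enzyme, had 287 and 493 in the knockouts and 69.9 and 18.9 in the controls, with wide spread in both groups (log2 fold change 3.33, limma adjusted p = 0.0976). It passed without control 1 (4.24, limma adjusted p = 0.004) and without control 2 (2.41, limma adjusted p = 0.0434). Of the 22 genes, 9 had an unadjusted p under 0.05 in limma. For 14 both knockouts lay above both controls, where 25.5% of all genes did, and for 1 below. Most targets differed less than the class II genes: the median was 0.37, and Igtp, an interferon-induced GTPase, had a log2 fold change of 0.50 (limma adjusted p = 0.111).

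The class II region of chromosome 17 (34092340 to 34316199) holds 8 of the members among 17 listed genes. Of the 9 others, 8 were tested and 0 passed limma's threshold (3 at an unadjusted p under 0.05), with log2 fold changes from -0.40 to 0.77. The immunoproteasome gene Psmb9, which cuts peptides for class I molecules and stands between H2-DMb1 and H2-Ob, had 1276 and 1232 in the knockouts and 868 and 1059 in the controls (log2 fold change 0.39, SE 0.13, limma adjusted p = 0.18), or 0.24 without control 1. Psmb8, another immunoproteasome subunit, had 0.35 (limma adjusted p = 0.269), or 0.16 without control 1 and 0.55 without control 2. Outside this span, the list of region genes named Notch4, a Notch receptor of endothelium, with 177 and 120 in the knockouts and 218 and 495 in the controls (log2 fold change -1.16, limma adjusted p = 0.218). Notch4 was at -1.75 without control 1, where it passed (limma adjusted p = 0.0186), and at -0.57 without control 2. Of the 8 tested genes of that list, 0 passed in limma (4 at an unadjusted p under 0.05).

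**Figure D3:**
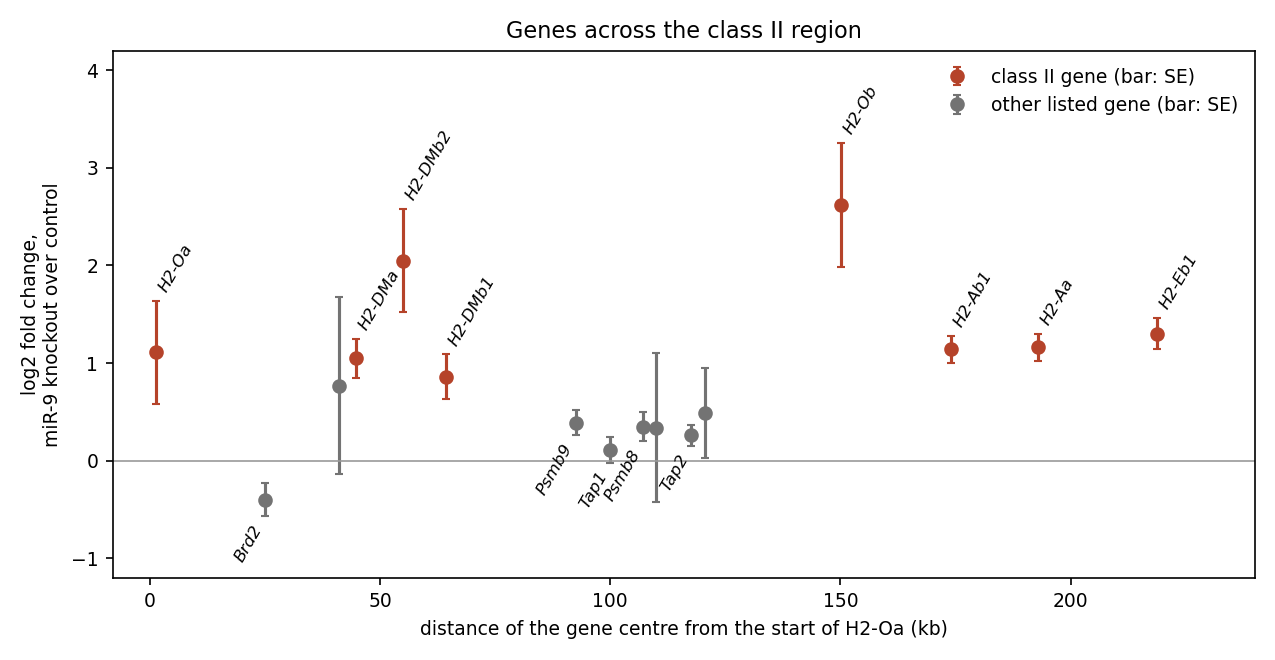
Log2 fold change, knockout over control (bar of 1 SE), of the tested genes of the class II region against distance in kilobases from the start of H2-Oa, with the class II genes in red and the other listed genes in grey. The class II genes lie at 0.86 or above on both sides of the antigen processing genes Psmb9, Tap1, Psmb8 and Tap2, which lie between 0.11 and 0.39.

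Because bulk glands were sequenced, more antigen-presenting cells and more class II message per cell cannot be told apart. Dendritic cell genes had a median log2 fold change of 1.12 over 12 tested genes, of which 0 passed in limma (7 at an unadjusted p under 0.05) and 10 had both knockouts above both controls, where 25.5% of all genes did. Their summed level was 1489 and 1300 in the knockouts and 835 and 680 in the controls. Itgax, the integrin CD11c, also found on macrophages, had 664 and 707 in the knockouts and 434 and 426 in the controls (log2 fold change 0.67, SE 0.13, limma adjusted p = 0.0691), and passed without control 1 (limma adjusted p = 0.028). Siglech, a lectin of plasmacytoid dendritic cells, had 42.8 and 64.1 in the knockouts and 15.4 and 18.9 in the controls (limma adjusted p = 0.122). Itgae, an integrin of one dendritic cell subset and of T cells in epithelium, had 64.7 and 80.6 in the knockouts and 33.9 and 27.9 in the controls (limma adjusted p = 0.143). No dendritic cell marker was at 0 in any library.

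Macrophage genes had a smaller median, 0.52 over 12 tested genes, with 0 past limma's threshold (6 at an unadjusted p under 0.05). For 11 of the 12 both knockouts lay above both controls, where 25.5% of all genes did. Csf1r, the receptor macrophages need to survive, had 1971 and 1609 in the knockouts and 1127 and 792 in the controls (log2 fold change 0.91, SE 0.18, limma adjusted p = 0.0774). C1qb, a complement subunit, and Lyz2, lysozyme, were at 0.53 and 0.52 on the log2 scale (limma adjusted p = 0.0857 and 0.123). Without control 1 these 3 passed, at limma adjusted p = 0.0113 for Csf1r, 0.0489 for C1qb and 0.0332 for Lyz2. The list summed to 27073 and 23037 in the knockouts and 19594 and 15810 in the controls. Genes of all leukocytes had a median of 0.60 over 8 tested genes, with 0 past limma's threshold (6 at an unadjusted p under 0.05). Both knockouts lay above both controls for 7 of them and below for 1. Ptprc, the common leukocyte antigen CD45, had 881 and 730 in the knockouts and 526 and 423 in the controls (limma adjusted p = 0.0763). Arhgdib and Coro1a, regulators of the leukocyte cytoskeleton, had 0.98 and 0.65 (limma adjusted p = 0.0932 and 0.0999). Without control 1 all 3 passed, at limma adjusted p = 0.0229 for Ptprc, 0.0186 for Arhgdib and 0.0285 for Coro1a.

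The class II messages were also higher in the knockouts relative to the summed reads of these lists. Cd74, H2-Aa, H2-Ab1 and H2-Eb1 summed to 1.65 and 1.88 times the macrophage list in the knockouts, against 1.04 and 1.04 times in the controls. The macrophage list's sum leans on Lyz2 and the C1q genes, whose log2 fold changes ran from 0.4 to 0.53. The list's median was 0.52, and Csf1r was at 0.91. Against the dendritic cell list the 4 chain genes were at 29.9 and 33.2 times in the knockouts and 24.4 and 24.2 times in the controls. That list's sum leans on Itgax, also found on macrophages. Itgax gave 664 and 707 of 1489 and 1300 reads in the knockouts, and 434 and 426 of 835 and 680 in the controls. By median log2 fold change the list (1.12) and the class II genes (1.15) were close. Per read of Ptprc they were 50.5 and 59.2 in the knockouts, against 38.8 and 38.8 in the controls. None of these ratios overlapped between the groups. They follow from the same contrast that chose the family, so they are given with no test, and the part that the number of such cells played in the class II difference was not tested.

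B cell genes, like H2-Ob and H2-DMb2, were far apart between the 2 knockout libraries. The list had 0 of 12 genes past limma's threshold (5 at an unadjusted p under 0.05). For 7 both knockouts lay above both controls, where 25.5% of all genes did. Fcer2a, a low-affinity IgE receptor, was at 43.8 and 4.86 in the knockouts and listed at 0 in both controls. The list's median log2 fold change was 2.33, or 2.26 without this gene. On the log2 scale its median for knockout 1 minus knockout 2 was 2.39, against 0.38 for dendritic cell, 0.18 for macrophage and 0.27 for all-leukocyte genes. Cd79b, a signalling chain of the B cell receptor, had 135 and 40.8 in the knockouts and 7.19 and 16.9 in the controls (limma adjusted p = 0.108). Cd72, which is also found on other leukocytes, had 366 and 331 in the knockouts and 198 and 181 in the controls (limma adjusted p = 0.0784), and passed without control 1 (limma adjusted p = 0.0271). The defining marker Ms4a1, which encodes CD20, was at 84.6 and 0 in knockouts 1 and 2 and at 2.05 and 0 in the controls. Fcer2a, Cr2, Blk and Bank1 were also at 0 in control 2, and Fcer2a in control 1.

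Class II chain reads per read of the B cell list were 39.6 and 92.2 in the knockouts and 74.1 and 67.4 in the controls, so these ratios overlapped. That list's sum leans on Cd72, also found on other leukocytes. Cd72 gave 366 and 331 of 1124 and 469 reads in the knockouts, and 198 and 181 of 275 and 244 in the controls. The part of B cells in the class II values, those of H2-Ob and H2-DMb2 included, was not tested.

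**Figure D4:**
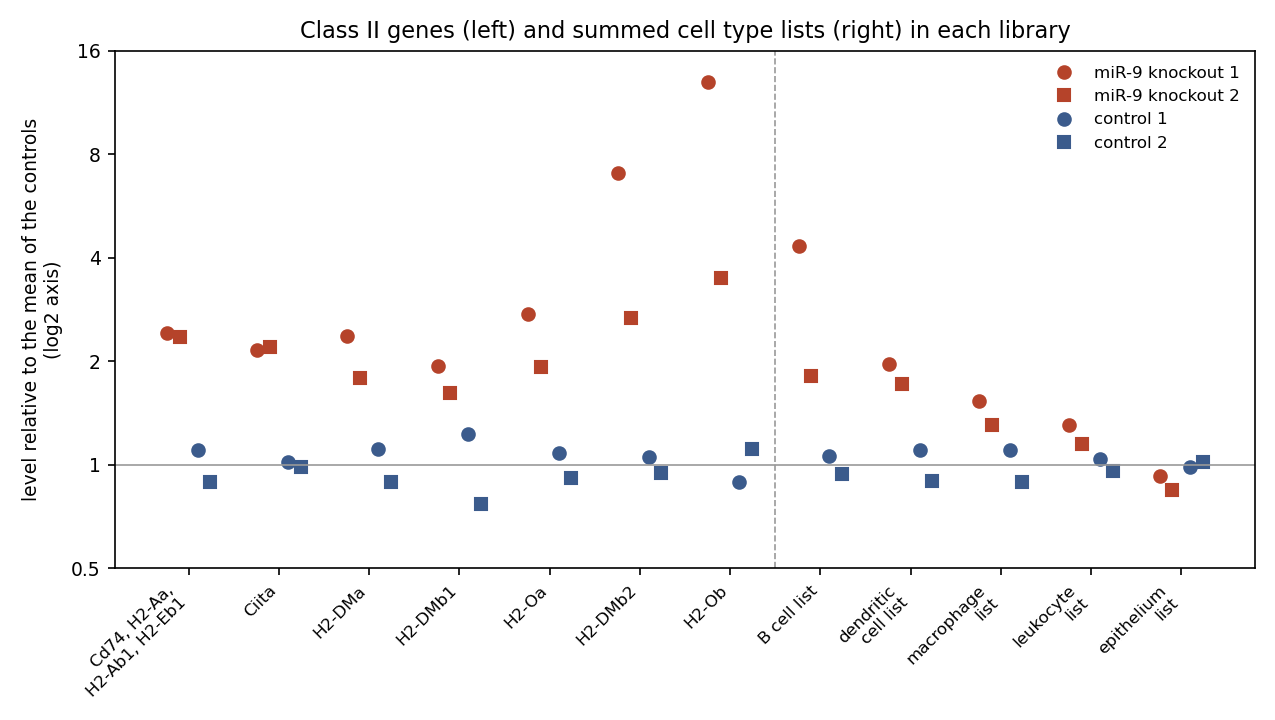
Level in each library relative to the mean of the 2 controls (log2 axis), for the class II genes on the left of the dashed line and for the summed B cell, dendritic cell, macrophage, leukocyte and epithelial lists on the right, with knockouts in red and controls in blue. The gap between the knockouts is small for the chain genes and Ciita and wide for H2-DMb2, H2-Ob and the B cell list, whose sums were 1124 and 469 in the knockouts. Cd72, also found on other leukocytes, gave 366 and 331 of those reads.

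T cells are the readers of class II, and their genes were near the chain genes in size of difference, though at low counts. The 10 tested genes had a median log2 fold change of 0.97, with 0 past limma's threshold (5 at an unadjusted p under 0.05), and summed to 508 and 382 in the knockouts and 229 and 214 in the controls. Cd4, the coreceptor that binds class II, had 37.8 and 35.9 in the knockouts and 22.6 and 14.9 in the controls. Lag3, an inhibitory receptor that also binds class II, had 63.7 and 59.2 in the knockouts and 28.8 and 30.9 in the controls (log2 fold change 1.02, SE 0.35, limma adjusted p = 0.197). Cd3g, of the T cell receptor complex, and Trbc2, a receptor constant segment, had 1.41 and 0.92 (limma adjusted p = 0.121 and 0.22), and Cd3g passed without control 1 (limma adjusted p = 0.0411).

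Of 10 tested epithelial genes, 0 passed limma's threshold (3 at an unadjusted p under 0.05), and the median log2 fold change was -0.19. Both knockouts lay below both controls for 7 of them and above for 2, where 51.2% of all tested genes had no overlap in either direction. The tight junction gene Cldn7 had 2282 and 2223 in the knockouts and 3249 and 3656 in the controls (log2 fold change -0.61, SE 0.10, limma adjusted p = 0.0552). Cldn7 passed without control 1 (0.0154), with no filter (0.0338) and with quantile normalisation (0.0486), each a limma adjusted p. The basal keratin Krt14 had -0.46 and the luminal keratin Krt7 had 0.33 (limma adjusted p = 0.111 and 0.188), and Krt7 was at 0.21 without knockout 1. The files cannot show which cells of the gland carried the class II messages.

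**Figure D5:**
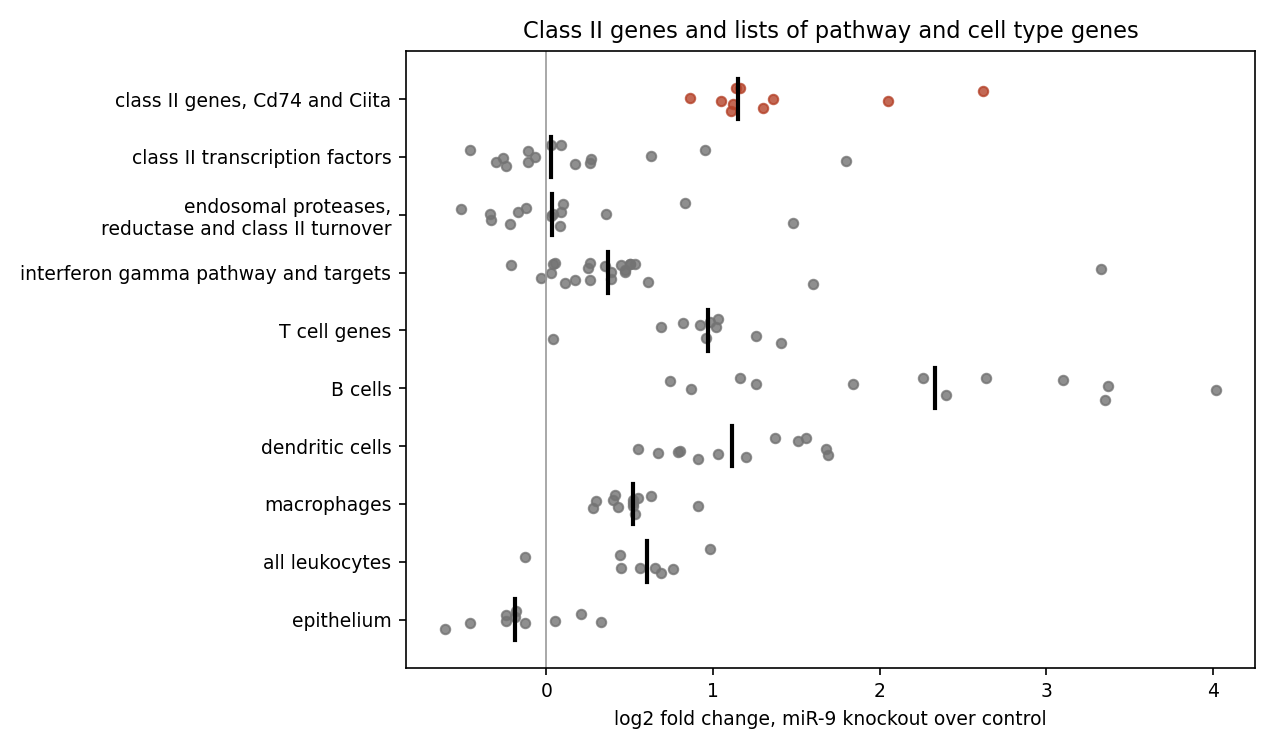
Log2 fold change, knockout over control, of every tested gene of each list (points) with the list's median (black bar), the 10 class II genes in red. Their median of 1.15 lies beside those of the dendritic cell list (1.12) and T cell genes (0.97), while those of the class II transcription factors and the endosomal machinery are both 0.03.

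Over all 118 tested genes of these other lists, 1 passed limma's threshold, Cxcl9, where 0.583% of all genes passed in either direction. Without control 1, 32 of 115 passed, as did 2361 of all genes. No overlap between the groups, in either direction, was found in 51.2% of all tested genes, which is the background for statements on single genes above.

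The genes whose pattern over the 4 libraries was most like that of the chain genes were sought among 13050 genes with a mean of at least 50. Likeness was the distance between log2 profiles centred on their own mean, taken to the mean profile of Cd74, H2-Aa, H2-Ab1 and H2-Eb1. The 5 nearest were Adap2 (0.02), Cbr2 (0.077), Pdgfrl (0.098), Cyp27a1 (0.111) and Fndc1 (0.116), and 22 genes in all lay within 0.2. Among the members, H2-Eb1 lay at 0.116, Cd74 at 0.178, Ciita at 0.25, H2-DMb2 at 1.24 and H2-Ob at 1.94. Adap2, an adaptor with PH domains, had 95.5 and 93.2 in the knockouts and 44.2 and 34.9 in the controls. Cbr2, a carbonyl reductase, had 2737 and 2653 in the knockouts and 1245 and 950 in the controls, and Cyp27a1, a sterol hydroxylase, had 242 and 245 in the knockouts and 112 and 96.6 in the controls. Cbr2 rose past limma's threshold with all libraries (adjusted p = 0.0154) but not without knockout 1 (0.732) or knockout 2 (0.551). The other 4 passed without control 1, at limma adjusted p = 0.0372 for Adap2, 0.00769 for Pdgfrl, 0.0169 for Cyp27a1 and 0.00774 for Fndc1. Pdgfrl, Cyp27a1 and Fndc1 also passed with no filter, and Pdgfrl and Fndc1 with quantile normalisation. With 4 libraries, such likeness is a description and says nothing of shared cells or control.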

How the data were processed

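The authors deposited 1 table per library of normalised signal, not counts. All values were whole multiples of 1 step per library (0.9949 and 0.9712 in knockouts, 1.0274 and 0.9964 in controls, within 1e-06), as read counts divided by a size factor would be; fold changes are therefore relative to the typical gene. Per the submitters' processing notes, Bowtie 0.12.2 and the builds hg38, GRCm38 and mm10 were named, with no role. The counting tool and strand setting are not given in the sources used here. Coordinates are those of the files; 97.1% of 25763 genes found in GENCODE M21 (GRCm38) matched it, as did 3 of the 10 members.

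Genes at 1 or more in at least 2 libraries (22455) entered limma 3.58.1 (R 4.3.3; trend and robust, genotype as the sole term) on the scale log2(value + 1), Benjamini-Hochberg over all of them, threshold 0.05, after a check on simulated data. A fold change on this scale understates that of low genes. With 2 libraries a group an exact permutation test cannot reach the threshold. Of 123 symbols in the other lists, 119 were listed; March1, March8, Btnl4 and Btnl6 are not analysed here. Members and lists were chosen with earlier results of these data known. Named genes are all members, from each list those past the threshold and the 3 smallest p, and the 5 nearest profiles. Others (Rfx5, Nfya, Nfyb, Nfyc, Cd37, Ctse, Cd4, Ifng, Dexi, Ms4a1, Cr2, Blk and Bank1) were named after their values were seen. Alternatives were a pseudocount of 0.1, no filter, quantile normalisation, a replicate block and leaving out each library.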

Additional observations from a re-analysis of the deposited data

How the results depend on the processing

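None of the 45 genes chosen by the naming rule reversed direction under a setting in which it was fitted. Genes named after their values were seen were not refitted one by one. For Rfx5, Nfyc, Ifng, Dexi, Ms4a1, Cr2 and Bank1 the groups overlap, so that their direction can turn with 1 library. Of the 10 class II genes, 5 passed limma's threshold with all libraries, 1 with a pseudocount of 0.1, 6 with no filter, 6 with quantile normalisation and from 0 to 7 with 1 library left out. Of the other list genes, 1 passed, against 0 with a pseudocount of 0.1, 3 with no filter, 3 with quantile normalisation and from 0 to 32 with 1 library left out, the 32 without control 1. Over all genes 131 passed, against 33, 332 and 257 with the first 3 settings, 2361 without control 1, 173 without control 2 and 0 without either knockout. A lone library was assumed to vary like the other group. With the replicate number as a block, 6 class II genes, 2 other list genes and 367 of all genes passed; the labels do not say that the numbers pair animals, and across genes the 2 groups' differences between libraries 1 and 2 correlated at 0.12. Fcer2a could not be fitted without either knockout, as it then failed the filter. Values of H2-Oa, at 6.97 to 20.9 reads, rest on few reads.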
